A study of Mus musculus with 12 samples.

Results

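The 8 genes described here move lactate across the cell membrane or convert it inside the cell, and they were taken by name from the 21959 genes of the deposited expression table. The carriers were Slc16a1, Slc16a3, Slc16a4 and Slc16a6. The chaperones were Bsg and Emb, and the enzymes were Ldha and Ldhb. The cells were C8-D1A, an established clonal astrocyte line of mouse cerebellum, which the labels give as brain. Bulk RNA was sequenced from 12 libraries in 4 groups of 3, each collected 24 h after the medium or gas was changed. The groups were cells under 15% CO2, cells in medium with 20 mM lactic acid added, cells in medium whose NaHCO3 was lowered to 0.2 g/L (called low NaHCO3 here), and control cells under 5% CO2 in standard culture. The labels name no genotype, transgene or donor that differs between groups, and separate cultures are not stated for the 3 replicates, so the p-values measure the spread between libraries only. The sources used here give neither the gas for the lactic acid and low NaHCO3 cells, nor the pH of any medium, nor the NaHCO3 level of the other groups. The pH reached by the 3 treatments can therefore not be set side by side.

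Lactate crosses membranes together with a proton through the monocarboxylate transporters, so carriage depends on the gradient of pH as well as of lactate. The transporters encoded by Slc16a1 and Slc16a3 need a single-pass membrane glycoprotein, basigin (Bsg) or embigin (Emb), to reach the surface. Lactate dehydrogenase is a tetramer of A and B subunits, encoded by Ldha and Ldhb, that interconverts pyruvate and lactate. The A subunit is known for favouring lactate formation and the B subunit for favouring its oxidation. Astrocytes in brain are known for releasing lactate that neurons can take up.

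The sequence around the annotated start is shown for the members whose levels carry the results, and for the scarce carrier Slc16a3. In mammals Ldha is a known target of hypoxia-inducible factors and of Myc, Slc16a1 of Myc, and Slc16a3 of hypoxia-inducible factors. RefSeq promoter windows (build GRCm38.p6, from 250 bases before to 50 bases after the start, printed 5′ to 3′ on the strand of the gene) were found for 6 of the 8 members, and Bsg and Slc16a6 had no entry. Capitals mark every ACGTG, a core read by hypoxia-inducible factors, on either strand. Each CACGTG, an E-box, reads as ACGTG on both strands and so counts as 2 overlapping matches.
Ldha, chr7:46845554-46845853 (+): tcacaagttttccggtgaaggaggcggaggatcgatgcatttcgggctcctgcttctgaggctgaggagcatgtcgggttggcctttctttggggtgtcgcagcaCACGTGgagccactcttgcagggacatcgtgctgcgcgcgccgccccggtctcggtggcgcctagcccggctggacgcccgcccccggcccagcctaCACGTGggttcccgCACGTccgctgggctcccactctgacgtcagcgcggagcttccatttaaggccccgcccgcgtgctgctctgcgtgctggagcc
Slc16a1, chr3:104638414-104638713 (+): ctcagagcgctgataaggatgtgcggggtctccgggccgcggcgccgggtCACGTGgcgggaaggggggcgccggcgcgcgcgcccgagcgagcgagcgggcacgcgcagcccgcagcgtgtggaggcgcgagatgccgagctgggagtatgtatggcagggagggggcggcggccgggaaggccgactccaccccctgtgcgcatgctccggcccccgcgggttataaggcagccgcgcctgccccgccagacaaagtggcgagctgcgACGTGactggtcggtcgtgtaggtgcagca
Ldhb, chr6:142507908-142508207 (-): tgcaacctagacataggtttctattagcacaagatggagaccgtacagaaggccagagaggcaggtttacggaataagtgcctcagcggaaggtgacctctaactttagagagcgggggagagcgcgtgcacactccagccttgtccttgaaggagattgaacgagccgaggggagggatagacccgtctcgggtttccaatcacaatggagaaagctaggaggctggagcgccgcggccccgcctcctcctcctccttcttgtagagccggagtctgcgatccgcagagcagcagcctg
Slc16a4, chr3:107290980-107291279 (+): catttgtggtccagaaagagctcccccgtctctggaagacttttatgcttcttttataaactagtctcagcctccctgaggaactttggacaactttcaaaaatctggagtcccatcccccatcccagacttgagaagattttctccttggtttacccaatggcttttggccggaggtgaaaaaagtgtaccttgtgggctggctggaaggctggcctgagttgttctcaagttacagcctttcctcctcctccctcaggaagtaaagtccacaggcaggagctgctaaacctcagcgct
Slc16a3, chr11:120948817-120949116 (+): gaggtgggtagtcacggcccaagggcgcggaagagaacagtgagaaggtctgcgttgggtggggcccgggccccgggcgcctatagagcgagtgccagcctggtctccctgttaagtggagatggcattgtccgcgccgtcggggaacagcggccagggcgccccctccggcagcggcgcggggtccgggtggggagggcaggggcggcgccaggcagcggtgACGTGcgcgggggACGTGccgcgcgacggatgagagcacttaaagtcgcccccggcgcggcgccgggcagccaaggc
The Ldha window held 5 ACGTG matches, 4 of them from 2 CACGTG, and 0.183% of the 32851 RefSeq promoters held as many. The Slc16a1 window held 3, of which 2 came from 1 CACGTG, a number reached by 1.73% of promoters. At least 1 ACGTG was found in 19.6% of all promoters and CACGTG in 7.15%. Ldhb, Slc16a4, Emb and a second Ldha start had no ACGTG in their windows, and Slc16a3 had 2. A further form of the core, GCGTG, is not marked and was found in 32.4% of all promoters. It occurred 2 times in the window of each Ldha start, 2 times in that of Slc16a1 and 1 time in that of Ldhb. The windows of Slc16a4, Slc16a3 and Emb held none. These counts describe letters in a window and were set against no expression value.

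Expression is given as TPM, a transcript's share of each library scaled for its length, so levels of different genes can be compared. Every column summed to 1000000, and the depth of the libraries is unknown. Control library 1 stood apart from the other 11. Its 8 neuronal markers summed to 2083 TPM, against 4.84 to 10.4 TPM in the others, and its 6 oligodendrocyte markers to 912 TPM, against 30.8 to 58.3 TPM. The astrocyte transporter Slc1a3 was at 145 TPM in control library 1 and at 0 to 0.0210 TPM elsewhere, and Aqp4 was at 45.3 TPM in control library 1 and at 0 to 0.356 TPM elsewhere. The defining markers of mature astrocytes Slc1a2, Gfap, Gja1 and Aldh1l1 also reached at most 1.19 TPM in the other 11 libraries, whereas S100b (33.5 to 49.8 TPM), Sox9 (31.2 to 52.5 TPM) and Vim (1327 to 2678 TPM) were present. Of the 9 astrocyte markers examined, 3 were thus clearly present in those libraries and 6 were at or near 0, which goes against the label as far as mature astrocytes are concerned. Of the members, Slc16a3, Slc16a6, Emb and Ldhb were highest of all 12 libraries in control library 1, and Slc16a1, Slc16a4 and Bsg were lowest there. The main results against control are given with all 12 libraries and again with the 11 that leave out control library 1. Values given only once come from all 12 libraries, control library 1 included, unless stated otherwise. In such bulk libraries fewer cells of a type and less RNA per cell cannot be told apart.

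In the 11 libraries the members fell into 2 tiers. Bsg (949 to 1296 TPM) and Ldha (451 to 1014 TPM) were highest, followed by Slc16a1 (128 to 206 TPM), Ldhb (69.4 to 150 TPM) and Slc16a4 (17.4 to 45.1 TPM). Slc16a3, Slc16a6 and Emb stayed under 1 TPM in each of them. Among the members, Slc16a1 was thus the abundant carrier and Bsg the abundant chaperone. Outside the members, Slc16a13 of the same family was at 60.7 to 123 TPM in the 11 libraries, and Slc16a11 at 6.86 to 32.9 TPM. Slc16a3, which encodes the low-affinity lactate exporter described in astrocytes of brain, was at the edge of detection, and Slc16a7, the neuronal carrier of the same family, was listed at 0 in all 11.

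**Figure D1:**
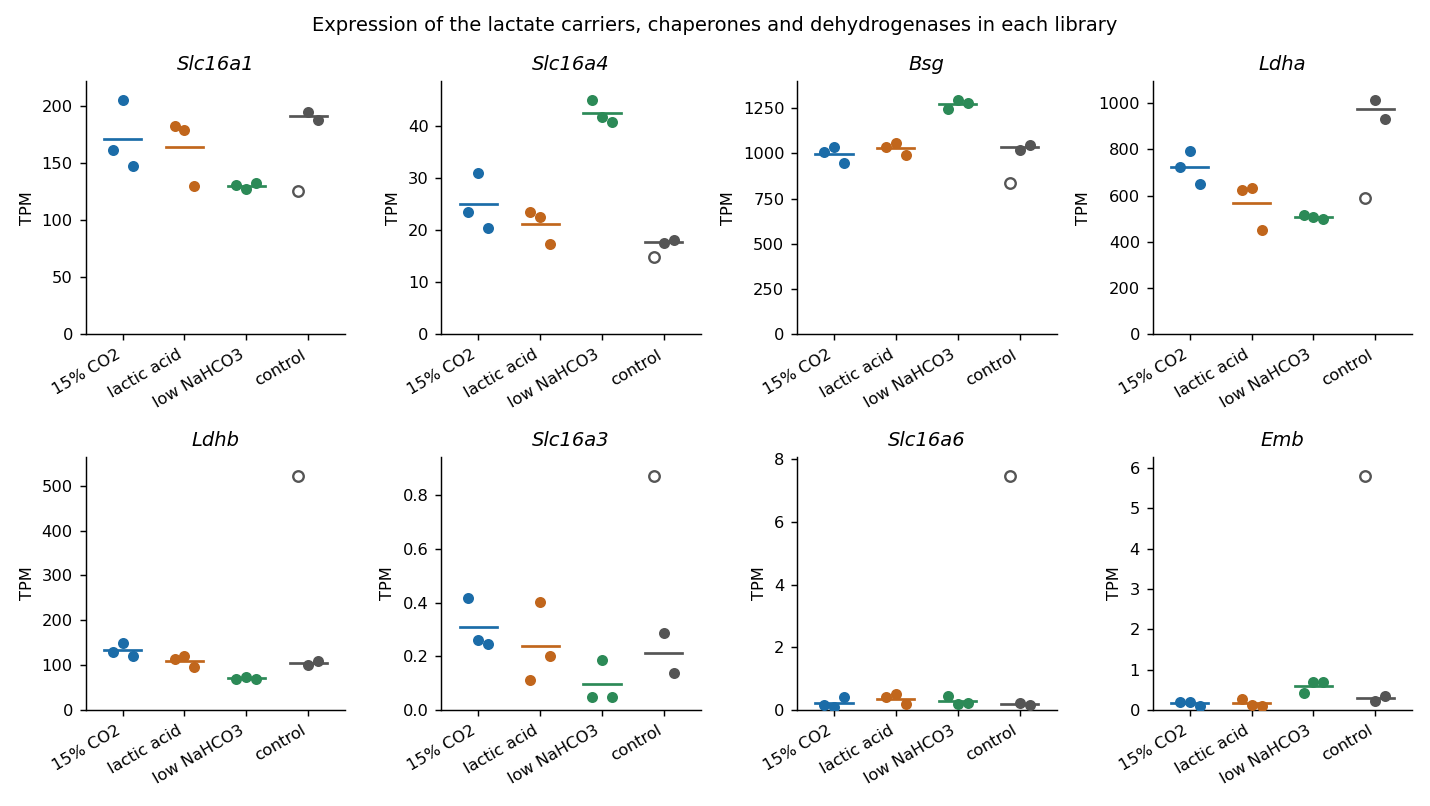
TPM of the 8 members (y axis, linear from 0) in each library of 15% CO2, lactic acid, low NaHCO3 and control cells; a point is 1 library, the open circle is control library 1, and the line is the mean without it. Slc16a4 and Bsg sit highest in low NaHCO3, Ldha is highest in control libraries 2 and 3, and the open circle stands far above the others for Ldhb, Slc16a6 and Emb.

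Low NaHCO3 was the treatment in which the most members changed, in both fits. With 12 libraries, 2 of the 5 members that passed the filter (at least 1 TPM in at least 3 libraries) rose against control and 2 fell at an adjusted p under 0.05 in limma with Benjamini-Hochberg adjustment. Of the 12326 genes tested, 54.8% passed, 19.8% higher and 35.0% lower. Without control library 1 the counts were 2 higher and 3 lower, where 63.7% of 12226 genes passed, 22.7% higher and 40.9% lower. The ranges of low NaHCO3 and control did not overlap for 4 of 5 members with 12 libraries (64.0% of genes) and for 5 of 5 without control library 1 (81.3% of genes). Most genes changed in this comparison, and these counts are close to that background. Over all genes the median log2 change in low NaHCO3 was −0.20 with 12 libraries and −0.17 without control library 1, and −0.04 after median-of-ratios scaling, so a member's change on the TPM scale is read against that shift. The members' median was −0.35 with 12 libraries and −0.55 without control library 1, and it covered changes in both directions.

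Slc16a4 encodes an orphan member of the carrier family, whose substrate is less settled than that of Slc16a1. It was at 23.5, 30.9 and 20.5 TPM under 15% CO2, at 23.5, 22.5 and 17.4 TPM with lactic acid, at 45.1, 41.8 and 40.7 TPM in low NaHCO3, and at 14.9, 17.6 and 18.1 TPM in control. All 3 low NaHCO3 libraries lay above all 9 others. The log2 change of (TPM + 1) against control was 1.29 ± 0.15 (SE, limma, adjusted p = 5.468e-05), and 1.21 ± 0.16 without control library 1 (adjusted p = 5.375e-05). Low NaHCO3 also exceeded 15% CO2, by 0.76 ± 0.15 on the log2 scale (adjusted p = 0.00184), and lactic acid, by 0.99 ± 0.15 (adjusted p = 0.0003852). The 15% CO2 libraries stood above control without overlap, with a log2 change of 0.53 ± 0.15 that missed the threshold (adjusted p = 0.1395). The share of all genes without overlap is given only for low NaHCO3 against control. A lack of overlap in other comparisons therefore has no background beside it. With lactic acid the ranges overlapped control and the log2 change was 0.30 ± 0.15 (adjusted p = 0.2653).

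Slc16a1, the most abundant carrier among the members, encodes the transporter that moves lactate in either direction. It was at 161, 206 and 148 TPM under 15% CO2, at 183, 180 and 130 TPM with lactic acid, at 131, 128 and 132 TPM in low NaHCO3, and at 125, 195 and 188 TPM in control. The low NaHCO3 libraries lay below control libraries 2 and 3 but not below control library 1. The change in low NaHCO3 accordingly depended on that library: the log2 change was −0.35 ± 0.19 with 12 libraries (limma, adjusted p = 0.1327) and −0.55 ± 0.15 without it (adjusted p = 0.008618). After median-of-ratios scaling, which sets the typical gene to no change, the value was −0.17 with 12 libraries and −0.37 without control library 1. Under 15% CO2 the log2 change of Slc16a1 was 0.03 with 12 libraries and −0.17 without control library 1, and with lactic acid it was −0.04 with 12 libraries and −0.24 without control library 1, none past the threshold.

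Bsg, the chaperone of the Slc16a1 transporter, was at 1006, 1038 and 949 TPM under 15% CO2, at 1036, 1058 and 993 TPM with lactic acid, at 1245, 1296 and 1281 TPM in low NaHCO3, and at 837, 1021 and 1047 TPM in control. Its low NaHCO3 libraries stood above the other 9, while the 15% CO2 and lactic acid ranges lay over that of the control. In low NaHCO3 the log2 change against control was 0.40 ± 0.11 (limma, adjusted p = 0.01058) and 0.30 ± 0.08 without control library 1 (adjusted p = 0.006271). This rise depended on the scale: it was 0.58 after median-of-ratios scaling and 0.0028 after quantile normalization (adjusted p = 0.9784), which forces all libraries to 1 distribution. Against 15% CO2 and lactic acid, Bsg in low NaHCO3 was higher by 0.35 ± 0.11 and 0.31 ± 0.11 on the log2 scale (adjusted p = 0.02095 and 0.04021), and under quantile normalization these differences were −0.04 and −0.10. On the TPM scale and in the 11 libraries, Bsg thus rose in low NaHCO3 while its carrier Slc16a1 fell.

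**Figure D2:**
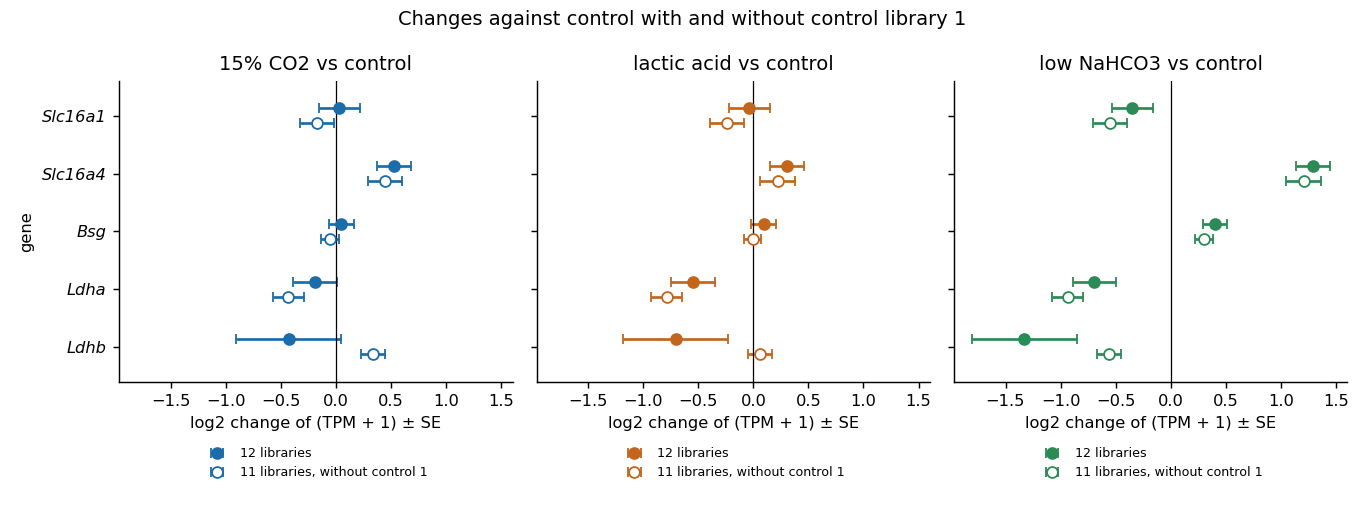
log2 change of (TPM + 1) against control with its SE (x axis) for the 5 members that were tested, from limma fits with 12 libraries (filled) and without control library 1 (open). Ldhb under 15% CO2 is at −0.43 with 12 libraries and at 0.34 without control library 1, while Slc16a4 in low NaHCO3 stays at 1.29 and 1.21.

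Ldha, the A subunit, was at 724, 795 and 648 TPM under 15% CO2, at 626, 632 and 451 TPM with lactic acid, at 517, 507 and 500 TPM in low NaHCO3, and at 589, 1014 and 930 TPM in control. Control libraries 2 and 3 exceeded all 9 treated libraries, and control library 1 lay among the lactic acid values. In low NaHCO3 Ldha fell, with a log2 change of −0.69 ± 0.20 (limma, adjusted p = 0.01255) and −0.93 ± 0.14 without control library 1 (adjusted p = 0.0001517). With lactic acid the change was −0.54 ± 0.20 (adjusted p = 0.136), and it passed the threshold without control library 1 at −0.78 ± 0.14 (adjusted p = 0.005599). That made Ldha the 1 member of 5 past the threshold with lactic acid in the 11-library fit, where 16.1% of genes passed. With 12 libraries none of the 5 passed, against 3.99% of genes, and 1 had an unadjusted p under 0.05. The share of all genes under the unadjusted threshold is not given here. Counts at that threshold, here and below, therefore have no background beside them.

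Ldha under 15% CO2 lay between the lactic acid libraries and control libraries 2 and 3. Its log2 change was −0.19 ± 0.20 with 12 libraries (limma, adjusted p = 0.6471) and −0.43 ± 0.14 without control library 1 (adjusted p = 0.08505), neither past the threshold. None of the 5 members passed under 15% CO2 in either fit, where 1.35% of genes passed with 12 libraries and 7.38% without control library 1. At an unadjusted p under 0.05 the counts were 1 of 5 and 3 of 5, with no background at that threshold, so they are not read as a response of the members. The count at the adjusted threshold was 3 when lactic acid library 3, the lowest of its group for all 5 members, was also left out of the fit: Slc16a4 (0.44, limma, adjusted p = 0.04385), Ldha (−0.43, adjusted p = 0.007513) and Ldhb (0.34, adjusted p = 0.02694). This setting was chosen after seeing the data, and the library is in neither group compared. The log2 changes were those of the 11-library fit. The share of all genes passing in this setting is not given here, so the count has no background beside it.

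Ldhb, the B subunit, was at 130, 150 and 121 TPM under 15% CO2, at 113, 121 and 95.9 TPM with lactic acid, at 69.4, 73.6 and 69.5 TPM in low NaHCO3, and at 523, 99.8 and 110 TPM in control. Low NaHCO3 libraries were below the rest. Control library 1 held several times the level of any other library, and the neuronal and oligodendrocyte markers were high in the same library. Their part in its Ldhb level was not tested. The log2 change in low NaHCO3 was −1.33 ± 0.48 (limma, adjusted p = 0.03449) and −0.56 ± 0.11 without control library 1 (adjusted p = 0.001029). Both values passed the threshold, and their size differed by more than 1.5 times. Fitted on low NaHCO3 and control alone, the 12-library change missed it (adjusted p = 0.1212). Under 15% CO2 the sign turned with control library 1: the log2 change was −0.43 ± 0.48 with 12 libraries (adjusted p = 0.6706) and 0.34 ± 0.11 without it (adjusted p = 0.08625), and with lactic acid the values were −0.71 ± 0.48 and 0.06 ± 0.11 (adjusted p = 0.3845 and 0.7207).

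Ratios between members of the same library do not depend on the scaling between libraries. Ldhb made up 15.2%, 15.9% and 15.7% of the summed Ldha and Ldhb TPM under 15% CO2, 15.3%, 16.1% and 17.5% with lactic acid, 11.8%, 12.7% and 12.2% in low NaHCO3, and 47.0%, 8.96% and 10.6% in control. All 9 treated libraries lay above control libraries 2 and 3 and below control library 1. Without control library 1 the mean log2 ratio of Ldhb to Ldha was higher than in control by 0.77 for 15% CO2, by 0.85 for lactic acid and by 0.37 for low NaHCO3, each with p = 0.2 in an exact two-sided permutation test, the smallest p that 3 libraries against 2 allow. With control library 1 the differences were −0.24, −0.16 and −0.65, each with an exact permutation p of 1.0, where 3 against 3 can reach 0.1. The 3 differences share the 2 remaining control libraries, so their common sign is not independent, and none passed a test. Ldha and Ldhb were both lower in low NaHCO3 than in control libraries 2 and 3, whereas Ldhb under 15% CO2 lay above them.

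The Slc16a4 to Slc16a1 ratio, chosen after the values were seen and therefore not tested, averaged 0.145 ± 0.0060 under 15% CO2, 0.129 ± 0.0044 with lactic acid, 0.326 ± 0.018 in low NaHCO3 and 0.102 ± 0.015 in control (SD, n = 3 each), or 0.0932 ± 0.0044 in control libraries 2 and 3. No low NaHCO3 library fell below 0.308 and no other library exceeded 0.150. Slc16a1 made up 74.2% to 76.4% of the TPM of the 4 member carriers in low NaHCO3, against 84.4% to 91.5% in control. Its share was 86.8% to 87.5% under 15% CO2 and 88.0% to 88.5% with lactic acid. Carriers outside the members, such as Slc16a13, are not in this sum. The ratio of Bsg to the 4 carriers together was 7.05, 7.63 and 7.39 in low NaHCO3 and 5.62, 4.79 and 5.07 in control. It was 5.42, 4.38 and 5.61 under 15% CO2 and 5.01, 5.21 and 6.71 with lactic acid. Neither this ratio nor the share of Slc16a1 was tested.

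**Figure D3:**
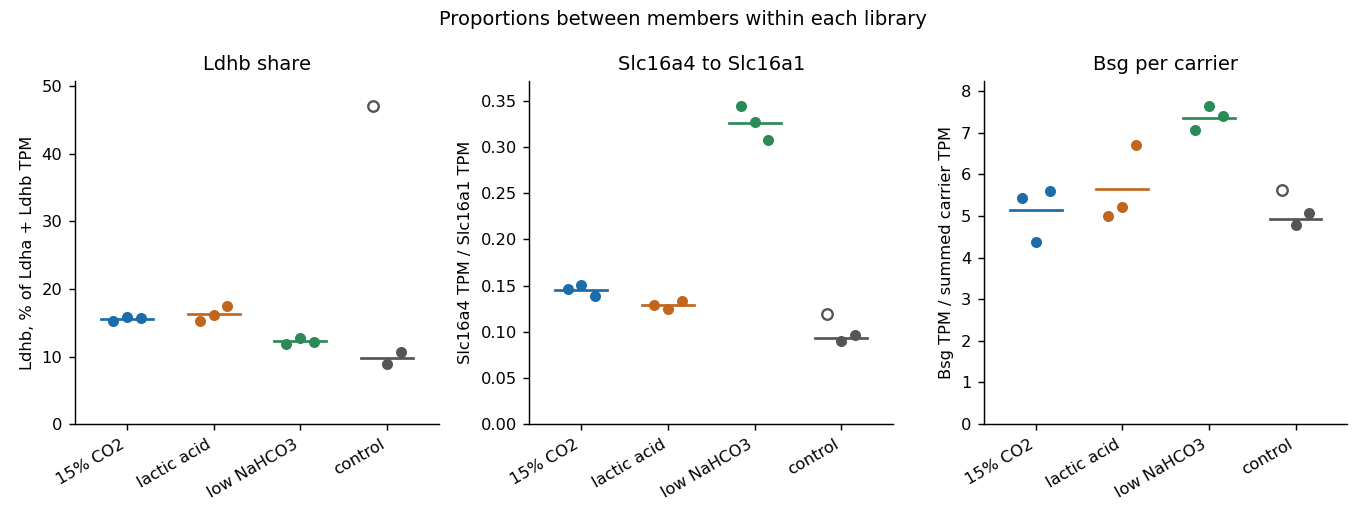
Proportions within each library of 15% CO2, lactic acid, low NaHCO3 and control cells: Ldhb as % of Ldha plus Ldhb TPM (left), Slc16a4 TPM over Slc16a1 TPM (middle) and Bsg TPM over the summed TPM of Slc16a1, Slc16a3, Slc16a4 and Slc16a6 (right). A point is 1 library, the open circle is control library 1 and the line is the mean without it. The Slc16a4 to Slc16a1 ratio is 0.308 to 0.344 in low NaHCO3 and 0.0901 to 0.119 in control.

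The 3 scarce members were below the filter and were not among the 5 tested. With no filter none of the 3 passed in limma in any of the 6 comparisons, and against control the smallest adjusted p was that of Slc16a3 in low NaHCO3 (−0.36 ± 0.17, adjusted p = 0.14009). Slc16a3 was at 0.416, 0.261 and 0.248 TPM under 15% CO2, at 0.111, 0.403 and 0.202 TPM with lactic acid, at 0.04995, 0.188 and 0.0502 TPM in low NaHCO3, and at 0.873, 0.288 and 0.139 TPM in control. Low NaHCO3 lay below 15% CO2 without overlap, and its range overlapped those of lactic acid and of control libraries 2 and 3. The log2 ratio of Slc16a3 to Slc16a1 differed from control by −0.16 for 15% CO2, −0.61 for lactic acid and −1.72 for low NaHCO3, with exact permutation p of 0.9, 0.7 and 0.2. Leaving out control library 1, the differences were 0.76, 0.30 and −0.81 (exact permutation p of 0.4, 0.8 and 0.4). The ratio rests on levels under 1 TPM. Slc16a6, a carrier known for ketone body export in zebrafish liver, ranged from 0.114 to 0.526 TPM in the 11 libraries and was at 7.48 TPM in control library 1. It overlaps Amz2 and Arsg on the opposite strand, and the use of strand in counting is not given in the sources used here.

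Emb, the chaperone partnered mainly with the Slc16a7 transporter, was at 0.213, 0.201 and 0.114 TPM under 15% CO2, at 0.286, 0.124 and 0.104 TPM with lactic acid, at 0.423, 0.688 and 0.696 TPM in low NaHCO3, and at 5.81, 0.222 and 0.357 TPM in control. The low NaHCO3 libraries were the highest of the 11, at levels too low for a call. Its transcripts share 4.92% of their 50-base stretches with other genes, chiefly Rnf7 at 121 to 285 TPM.

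Between treatments, 2 of 5 members differed between low NaHCO3 and 15% CO2 with 12 libraries (51.3% of genes passed). Without control library 1 it was 5 of 5 (69.3% of genes). These member counts, and those against lactic acid below, were not tested against the share of all genes. Only the 5 of 5 was above that share. The 3 members added against 15% CO2 without control library 1 were Slc16a1 (−0.38 ± 0.14, limma, adjusted p = 0.0282), Ldha (−0.50 ± 0.13, adjusted p = 0.004115) and Ldhb (−0.90 ± 0.10, adjusted p = 1.136e-05). Their log2 differences were the same in both fits, and the SE of Ldhb was 0.48 with 12 libraries. After median-of-ratios scaling without control library 1, Slc16a1 no longer passed against 15% CO2 (−0.17, adjusted p = 0.1814). Against lactic acid, 2 of 5 members differed in low NaHCO3 with 12 libraries (48.5% of genes) and 3 of 5 without control library 1 (67.4% of genes), the third being Ldhb (−0.62 ± 0.10, adjusted p = 0.0002006). Ldha did not pass there, with a log2 difference of −0.15 ± 0.13 (adjusted p = 0.3141) without control library 1. With lactic acid library 3 also left out it passed, at −0.31 (adjusted p = 0.006315). With 12 libraries it was 0.025 after median-of-ratios scaling and −0.43 after quantile normalization (adjusted p = 0.007912). Lactic acid and 15% CO2 differed in 0 of 5 members in both fits, against 0.203% of genes with 12 libraries and 4.6% without control library 1. At an unadjusted p under 0.05 the limma counts were 0 of 5 and 2 of 5, again with no background. Ldha came closest (−0.35 ± 0.13, adjusted p = 0.1426 without control library 1), and its lactic acid libraries lay below the 15% CO2 ones without overlap. The share of all genes without overlap in that comparison is not given here.

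Libraries differed in the share of the 13 mitochondrially encoded mRNAs, which was 15.6% to 24.8% under 15% CO2, 15.9% to 27.8% with lactic acid, 10.4% to 10.9% in low NaHCO3 and 15.6% to 19.7% in control. Lactic acid library 3 (27.8%) and 15% CO2 library 3 (24.8%) were the lowest of their groups for Slc16a1, Slc16a4, Bsg, Ldha and Ldhb, and 15% CO2 library 2 (15.6%) was the highest of its group for the same 5 genes. The part of this share in the members' levels was not tested. The fall of Ldha with lactic acid was −0.63 without lactic acid library 3 and control library 1 (limma, adjusted p = 0.00231). This setting was chosen after seeing the data and has no share of all genes beside it. It is no test of the mitochondrial share.

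Other genes of the pathway were read from 3 lists chosen for the family and its substrates. Among 14 further carriers of monocarboxylates, aromatic amino acids and mitochondrial pyruvate, 8 were tested. In low NaHCO3, 0 rose and 6 fell against control with 12 libraries (54.8% of all genes passed), with a median log2 change of −0.89. Without control library 1, Mpc1, a subunit of the mitochondrial pyruvate carrier, rose (1.11 ± 0.19, limma, adjusted p = 0.0004348) and the same 6 fell. Slc16a11 averaged 7.18 TPM in low NaHCO3 and 23.4 TPM in control (log2 change −1.57 ± 0.12, limma, adjusted p = 2.748e-06), and Slc16a8 averaged 0.341 TPM in low NaHCO3 and 2.497 TPM in control (−1.36 ± 0.23, adjusted p = 0.00051). Slc16a5, Slc16a10 and Slc16a13 also fell, whereas the member Slc16a4 rose. These list counts are on the TPM scale and were not repeated under other scalings. With lactic acid, Slc16a10, a carrier of aromatic amino acids, rose (6.95 TPM with lactic acid and 3.71 TPM in control, 0.76 ± 0.15, adjusted p = 0.02109) and the other 7 did not pass. In the lactic acid comparison 3.99% of all genes passed with 12 libraries. Under 15% CO2 none of the 8 passed with 12 libraries (3 at an unadjusted p under 0.05), where 1.35% of all genes passed. Without control library 1, 1 of the 8 passed there and was higher, where 7.38% of all genes passed.

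The 19 genes around lactate and pyruvate included 15 that were tested. In low NaHCO3 1 rose and 7 fell with 12 libraries, where 54.8% of all genes passed, and 3 rose and 7 fell without control library 1, where 63.7% did. Dld, a shared subunit of the pyruvate dehydrogenase complex, averaged 283 TPM in low NaHCO3 and 227 TPM in control (0.32 ± 0.12, limma, adjusted p = 0.04496), which did not pass without control library 1 (adjusted p = 0.09961). Gpt and Gpt2, which exchange pyruvate and alanine, fell by 1.38 ± 0.21 and 1.09 ± 0.14 on the log2 scale (adjusted p = 0.000294 and 7.6e-05), and Pdhx, which anchors Dld in the complex, fell by 0.87 ± 0.12 (adjusted p = 0.0001616). Under 15% CO2 and with lactic acid 0 of 15 passed in limma with 12 libraries (1 and 1 at an unadjusted p under 0.05). Of all genes, 1.35% and 3.99% passed there. In the 11-library fit 2 of 15 passed under 15% CO2 and 3 of 15 with lactic acid, where 7.38% and 16.1% of all genes passed. Without control library 1, Pdk2 and Pdk4, kinases that switch pyruvate dehydrogenase off, rose in all 3 treatments, by 1.21, 0.77 and 0.73 for Pdk2 and by 0.68, 0.42 and 0.73 for Pdk4 in the order 15% CO2, lactic acid, low NaHCO3. With all 12 libraries these values were 0.25, −0.19 and −0.23 for Pdk2 and 0.22, −0.05 and 0.26 for Pdk4, with no call. Pdp1, the phosphatase that switches the complex on, also rose in the 11 libraries with lactic acid (0.50 ± 0.09, limma, adjusted p = 0.005306) and in low NaHCO3 (0.38 ± 0.09, adjusted p = 0.002658), and was not called with 12. Pdk1, a further kinase and more abundant, fell in low NaHCO3 with 12 libraries (24.2 TPM in low NaHCO3 and 37.3 TPM in control, −0.61 ± 0.13, adjusted p = 0.002198) and without control library 1 (−0.64 ± 0.14, adjusted p = 0.001966). The 3 comparisons share the 2 control libraries. The lactate receptor Hcar1 was listed at 0 in the 11 libraries.

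From glucose to pyruvate, 17 of 18 genes were tested. In low NaHCO3 2 rose and 4 fell with 12 libraries (54.8% of all genes passed), and 3 rose and 7 fell without control library 1 (63.7% of all genes). The 2 main glucose carriers moved in opposite directions: Slc2a1 averaged 41.5 TPM in low NaHCO3 and 86.5 TPM in control (−1.03 ± 0.13, limma, adjusted p = 8.925e-05), whereas Slc2a3 averaged 93.6 TPM in low NaHCO3 and 57.1 TPM in control (0.73 ± 0.17, adjusted p = 0.004161). Gpi1 rose by 0.25 ± 0.08 (adjusted p = 0.02106), and the glycolytic enzymes Eno1 (−0.85 ± 0.20, adjusted p = 0.004772) and Pfkl (−0.72 ± 0.16, adjusted p = 0.003196) fell. Under 15% CO2 and with lactic acid 0 of 17 passed in limma with 12 libraries (0 and 5 at an unadjusted p under 0.05). Of all genes, 1.35% and 3.99% passed there. Under 15% CO2, 1 of 17, Pfkfb3, rose without control library 1, where 7.38% of all genes passed. With lactic acid, 4 rose and 5 fell without control library 1, where 16.1% of all genes passed. The 4 were Slc2a3 (73.5 TPM with lactic acid and 48.1 TPM in control libraries 2 and 3), Eno2 (5.74 and 3.32 TPM in those groups), Pfkp and Pfkfb3. The 5 were Pfkl, Pgk1, Pgam1, Eno1 and Pkm. Eno1 averaged 754 TPM with lactic acid and 1175 TPM in control libraries 2 and 3 (−0.66 ± 0.16, adjusted p = 0.02056).

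**Figure D4:**
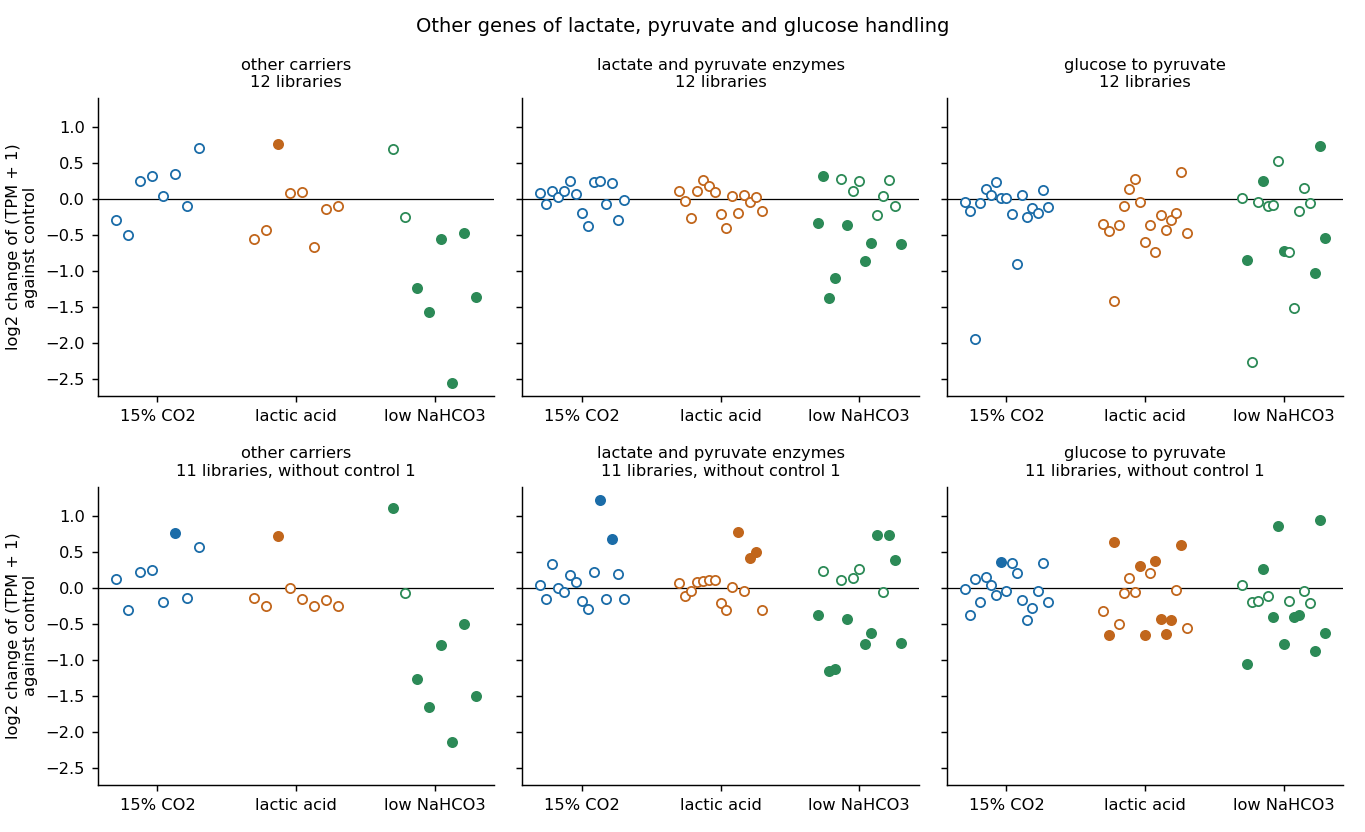
log2 change of (TPM + 1) against control (y axis) for each tested gene of the 3 lists in the 3 treatments; filled points passed an adjusted p under 0.05 and open ones did not, with 12 libraries above and without control library 1 below. Filled points lie mostly in low NaHCO3, where 6 of 8 other carriers are filled and below 0. Genes of the glucose list pass with lactic acid, and 1 under 15% CO2, only in the lower row.

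The genes whose profile over the 11 libraries was nearest to each member, among 10169 genes, were found by the root mean square difference of centred log2(TPM + 1) values, given as a description. For Ldha these were Myg1 (0.0552), Renbp (0.0791) and Umps (0.0826), against a spread of 0.362 of Ldha itself, and all 3 ranked within the first 10 over 12 libraries as well. For Slc16a4 they were Ccnl2 (0.0770), H2-T22 (0.0895) and Zfyve1 (0.0967), where Zfyve1 ranked 263 over 12 libraries. Slc16a1 was nearest to Mdh1 (0.0398), Tasp1 (0.0476) and Armc1 (0.0489), Bsg to Gdi2 (0.0383), Rest (0.0425) and Ranbp10 (0.0460), and Ldhb to Pbxip1 (0.0620), Ift122 (0.0777) and Itpr1 (0.0792). With control library 1 included, Mdh1 ranked 5724 for Slc16a1 and Pbxip1 5379 for Ldhb.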

How the data were processed

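RNA of 12 libraries was read from the deposited table of TPM, 1 column per library, which the authors made from reads using fastp 0.22.0, HISAT2 2.1.0 and the build GRCm39, per the submitters' processing notes. The sources used here name no read counter, annotation or strand setting. Groups follow the treatment labels, although descriptions of replicates 2 and 3 print CO3 and CO4. Symbols came from GENCODE M21 by Ensembl ID (21851 of 21959 matched), an older build. The only coordinates given are those of the RefSeq promoter windows, on GRCm38.p6 and not on the GRCm39 of the alignment. Values were taken as log2(TPM + 1), which understates changes of scarce genes. Genes reaching 1 TPM in 3 or more libraries were tested with limma 3.58.1 (R 4.3.3, eBayes with trend, group means, 6 contrasts, Benjamini-Hochberg within a contrast, threshold 0.05), with 12 libraries and without control library 1. The fit was first run on simulated data with the means and spread of the 11 libraries. That simulation held no outlying library and few changed genes, so it does not test the fit with control library 1 or a comparison where most genes change. Ratios were compared by exact permutation (scipy 1.17.1). Other genes were named as the 3 largest changes in each direction per list and contrast, and Mpc1, Pdk1, Pdk2, Pdk4, Pdp1, further carriers and glycolytic genes named beyond it were chosen after their values were seen; 1 gene that this rule names is not reported here. The members and lists were chosen with earlier results of these data known. Ldhb shares 21.0% and Ldha 9.03% of its 50-base stretches with other M21 transcripts, so some of their reads may have been divided. The gene sharing most was Gm5514 for Ldhb and Vmn1r218 for Ldha, and Vmn1r218 was listed at 0 TPM in every library. TPM keeps no counts, so no counting intervals could be given.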

Additional observations from a re-analysis of the deposited data

How the results depend on the processing

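Over 31 settings (22 planned and 9 chosen after seeing the data, which left out control library 1 with 1 treated library), 732 of 930 member values kept direction and side of the threshold, 97 passed where they had not, 22 no longer passed and 79 changed sign. Whether replicate numbers pair the libraries was not settled, because libraries of unlike number were not compared. The same-number correlation was over 0.1 in 3 of 18 pairs with 12 libraries and in 4 of 15 without control library 1. It was largest for lactic acid and 15% CO2, at 0.46 for replicate 3 and 0.31 for replicate 2. With the replicate block the members passing were 0, 0 and 4 for 15% CO2, lactic acid and low NaHCO3 against control. Leaving out 1 library, or control library 1 and 1 other, gave 0 to 3 members under 15% CO2, 0 to 1 with lactic acid, 3 to 5 in low NaHCO3 against control, 1 to 5 against 15% CO2 and 1 to 5 against lactic acid. The log2 ranges of values that changed sign were, under 15% CO2, −0.081 to 0.11 for Bsg, −0.85 to 0.41 for Ldhb and −0.31 to 0.145 for Slc16a1. With lactic acid they were −0.027 to 0.15 for Bsg, −1.13 to 0.16 for Ldhb and −0.32 to 0.12 for Slc16a1, and −0.17 to 0.091 for Slc16a1 against 15% CO2. The Ldhb to Ldha difference ranged from −0.81 to 0.77 under 15% CO2, −0.74 to 0.85 with lactic acid and −1.22 to 0.37 in low NaHCO3, and that of Slc16a3 to Slc16a1 from −0.86 to 0.76, −1.32 to 0.30 and −2.42 to −0.81. Without control library 1, median-of-ratios scaling gave 2, 1 and 4 members (15% CO2 and lactic acid against control, low NaHCO3 against 15% CO2), and the replicate block 1, 1 and 5, with 4 against lactic acid. Quantile normalization gave 1 with lactic acid, the fit on the compared groups only gave 5 against 15% CO2, and no filter or the replicate block gave 1 against lactic acid. The share of all genes passing is given only for the fits with 12 and with 11 libraries. The member counts under the other settings therefore have no background beside them and are not read as results about the members. Signs changed under median-of-ratios scaling for Slc16a1 under 15% CO2 (−0.0042) and Ldha in low NaHCO3 against lactic acid (0.025). With control library 1 also left out, that scaling gave −0.081 for Bsg, 0.31 for Ldhb and −0.20 for Slc16a1 under 15% CO2, 0.075 for Ldhb with lactic acid and 0.021 for that Ldha difference. The replicate block without it gave −0.050, 0.34 and −0.19 for the same genes under 15% CO2, and −0.0054 for Bsg and 0.065 for Ldhb with lactic acid. Quantile normalization gave 0.014 for Slc16a1 with lactic acid and −0.044 and −0.10 for Bsg in low NaHCO3 against 15% CO2 and lactic acid. The cause of these changes was not tested. Depth is unknown, so the counting error of values under 1 TPM, where it is largest, could not be computed.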
